A study of Homo sapiens with 8 samples.

Results

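A set of 9 genes of the NF-κB pathway were followed through 8 RNA libraries of BEAS-2B cells, an immortalised human bronchial epithelial cell line, to ask whether 1 ppm formaldehyde changed their abundance and whether their RNA was recovered differently by an antibody against 8-oxo-7,8-dihydroguanine (8-oxoG), an oxidised form of guanine. The genes were named for their place in the pathway, with earlier results of these data known: the transcription factor subunits NFKB1, NFKB2, RELA and RELB, the inhibitors NFKBIA and NFKBIE, the feedback regulators TNFAIP3 and BIRC3, and the kinase IKBKB. All 9 were found among the 58735 genes of the files, and all 9 passed the filter on low counts that left 18242 genes for testing. Cells were grown on membranes and exposed at the air-liquid interface for 2 h, and RNA was collected after 6 h of recovery in fresh medium. There were 4 groups of 2 libraries: input RNA after clean air (CA_IN), input RNA after formaldehyde (FA_IN), and the RNA immunoprecipitated with the antibody against 8-oxoG from each (CA_IP and FA_IP). All groups came from this 1 cell line, with no genetic change, and all RNA had been depleted of ribosomal RNA. The study's methods describe the replicates as biological duplicates, with each RNA pool split into an input and an immunoprecipitated part, and the deposited files carry the numbers 1 and 3. Input libraries held 26.2 to 45.1 M expected counts and immunoprecipitated libraries 16.9 to 23.7 M. The 9 genes together took 3887 to 6823 counts per input library and 2983 to 4156 per immunoprecipitated library. The cell type was checked in input RNA: all 7 epithelial markers, keratins and E-cadherin among them, were at or above 1 TPM (a level scaled for transcript length and depth), with a summed level of 977 to 1210 TPM, while 3 endothelial markers summed to 0.12 TPM at most. The 6 leukocyte markers summed to 2.43 to 3.27 TPM, nearly all of it from CD14 and CD68, the 2 that reached 1 TPM, while PTPRC averaged 0.0050 TPM. Of the 5 mesenchymal markers, 2 reached 1 TPM, VIM with a mean of 197 TPM and COL1A1.

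In resting cells NF-κB dimers are held in the cytoplasm by inhibitor proteins of the IκB family. When a receptor for a cytokine or a microbial product is engaged, the IκB kinase complex marks these inhibitors for degradation, and the freed dimers enter the nucleus and switch on genes of inflammation and survival. Several of the induced genes encode inhibitors of the same pathway, so that the response is limited in time. In airway epithelium the pathway is known for driving cytokine and chemokine production after irritants and infection. RELA encodes p65, the main activating subunit. NFKB1 and NFKB2 encode precursors that are processed to p50 and p52, and RELB encodes the partner of p52 in the noncanonical pathway. NFKBIA and NFKBIE encode IκBα and IκBε. TNFAIP3 encodes A20, a ubiquitin-editing enzyme that shuts the signal off, BIRC3 encodes the ubiquitin ligase cIAP2, and IKBKB encodes the catalytic subunit IKKβ. In GENCODE 44 (GRCh38) 8 of the genes lie at chr4:102501330-102617302 (NFKB1), chr10:102394110-102402524 (NFKB2), chr11:65653599-65663090 (RELA), chr19:45001461-45038192 (RELB), chr14:35401079-35404749 (NFKBIA), chr6:44258166-44265788 (NFKBIE), chr6:137867214-137883314 (TNFAIP3) and chr11:102317484-102339403 (BIRC3).

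Several of these genes are themselves targets of NF-κB, and the κB motif to which the dimers bind can be read in their promoters. Promoter windows of 300 bases, from 250 before to 50 after a transcription start, were taken from RefSeq on build GRCh38.p14 and matched by symbol, which gave 10 windows for 6 of the genes (NFKB1, NFKB2, RELA, NFKBIA, TNFAIP3 and BIRC3). A match to the κB consensus of 10 bases on either strand, with overlapping matches allowed, was found in 6 of the 10 windows and in 5 of the 6 genes, and in 5.91% of all 35116 windows. The windows of a gene can overlap and are not independent. RELA was the gene with a window and no match in either of its windows. The stretches upstream of the annotated gene start are printed 5′ to 3′ on the gene's strand for 4 genes, NFKB1, NFKBIA and TNFAIP3 because all 3 were higher in the libraries with file number 3 (given further on) and BIRC3 because it holds the same kind of match and did not pass that test. NFKB2 held the most matches, 5 in 2 of its 3 windows, and gave no call in that test (log2FC -0.05), but these windows lie inside the annotated gene and are not printed. Capitals mark the κB matches.
NFKB1 (chr4:102501109-102501329, plus strand): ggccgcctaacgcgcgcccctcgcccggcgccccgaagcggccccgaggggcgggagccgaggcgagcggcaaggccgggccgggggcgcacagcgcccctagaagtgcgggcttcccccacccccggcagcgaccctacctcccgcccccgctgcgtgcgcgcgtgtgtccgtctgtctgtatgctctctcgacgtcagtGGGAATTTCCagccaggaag
NFKBIA (chr14:35404750-35404999, minus strand): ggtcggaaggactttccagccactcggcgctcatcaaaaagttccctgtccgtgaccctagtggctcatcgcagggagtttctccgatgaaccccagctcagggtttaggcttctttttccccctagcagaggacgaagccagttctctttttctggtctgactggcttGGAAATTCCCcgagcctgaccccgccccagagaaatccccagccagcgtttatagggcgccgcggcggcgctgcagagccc
TNFAIP3 (chr6:137867009-137867213, plus strand): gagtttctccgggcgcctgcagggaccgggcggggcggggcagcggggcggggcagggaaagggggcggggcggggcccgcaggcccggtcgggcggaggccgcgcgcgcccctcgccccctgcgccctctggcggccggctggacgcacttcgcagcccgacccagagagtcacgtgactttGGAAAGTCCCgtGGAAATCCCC
BIRC3 (chr11:102317234-102317483, plus strand): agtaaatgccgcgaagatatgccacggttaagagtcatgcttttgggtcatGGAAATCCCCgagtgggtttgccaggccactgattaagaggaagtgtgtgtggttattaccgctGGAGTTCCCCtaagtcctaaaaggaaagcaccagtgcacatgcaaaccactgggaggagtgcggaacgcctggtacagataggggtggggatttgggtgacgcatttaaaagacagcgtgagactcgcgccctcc
The TNFAIP3 stretch ends at the base before the annotated gene start and holds 2 matches side by side, GGAAAGTCCC and GGAAATCCCC. The BIRC3 stretch holds GGAAATCCCC as well, farther from the start, and GGAGTTCCCC. NFKBIA holds GGAAATTCCC, its first base 81 bases before the RefSeq start, and NFKB1 holds GGGAATTTCC at 49 bases before the start. A match describes the letters of these windows only, and no binding of a factor was measured.

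Length-normalised levels can be compared between genes, and the authors' TPM, summed over the isoforms of a gene, gave their order in the 4 input libraries. NFKBIA was the most abundant at 9.68 ± 1.47 TPM (SD, n = 4), which placed it at the 82.3 percentile of the tested genes. RELA followed at 5.44 ± 0.769 TPM, IKBKB at 3.29 ± 0.332 TPM, NFKB2 at 2.87 ± 0.140 TPM and NFKB1 at 2.72 ± 0.542 TPM. NFKBIE lay at 2.06 ± 0.247 TPM, TNFAIP3 at 1.45 ± 0.495 TPM, BIRC3 at 0.785 ± 0.100 TPM and RELB at 0.765 ± 0.0926 TPM. The mRNA of the inhibitor IκBα was thus the most abundant of the 9, and that of RELB, the subunit of the noncanonical pathway, stood at the 38.7 percentile. The ranges over the 4 libraries separated NFKBIA from RELA, RELA from IKBKB and TNFAIP3 from BIRC3. They overlapped between IKBKB and NFKB2, NFKB2 and NFKB1, NFKB1 and NFKBIE, NFKBIE and TNFAIP3, and BIRC3 and RELB. Within each of the 4 libraries, IKBKB was still above NFKB2, NFKB1 above NFKBIE and NFKBIE above TNFAIP3, with no test made. The order of NFKB2 and NFKB1 and that of BIRC3 and RELB changed between libraries and was not resolved.

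The effect of formaldehyde on total RNA was read by comparing FA_IN with CA_IN. No change was detected in the 9 genes: 0 passed an adjusted p of 0.05 (edgeR quasi-likelihood test, Benjamini-Hochberg over 18242 genes), 0 had an unadjusted p under 0.05, and DESeq2 on all 8 libraries also called 0. Of all tested genes 0.00548% were called and 3.35% had an unadjusted p under 0.05. The fitted log2FC lay between -0.14 (NFKBIA) and 0.08 (NFKB1), with a median of 0.02 beside a median of 0.02 over all genes. In bulk RNA, fewer cells expressing a gene and less RNA per cell cannot be told apart, here and in every value that follows. Levels are given as CPM, counts scaled to the effective library size after TMM, in the order replicate 1 and replicate 2.

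Among the subunits, RELA was at 33.0 and 26.0 CPM in CA_IN and at 30.1 and 25.0 CPM in FA_IN. NFKB1 was at 23.1 and 27.7 CPM in CA_IN and at 23.4 and 30.2 CPM in FA_IN. In both genes the gap between the replicates of a treatment exceeded the gap between the treatment means. NFKB2 was at 15.8 and 16.4 CPM in CA_IN and at 17.2 and 15.4 CPM in FA_IN, and RELB, the least abundant, was at 3.47 and 4.51 CPM in CA_IN and at 4.08 and 4.08 CPM in FA_IN. In CPM, the libraries of the treatments overlapped for all 4 subunits, and for all 9 genes. Over all tested genes, 18.1% had both FA_IN libraries above both CA_IN libraries and 15.8% had both below. For RELA, the log2FC was -0.10 ± 0.15 (SE; 95% interval from -0.44 to 0.23), and for NFKB1 it was 0.08 ± 0.17 (from -0.31 to 0.48).

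The inhibitor NFKBIA was at 32.6 and 38.3 CPM in CA_IN and at 29.7 and 34.6 CPM in FA_IN. Its log2FC was -0.14 ± 0.15, and the interval from -0.48 to 0.21 corresponds to a fold between 0.716 and 1.16. The second inhibitor NFKBIE was at 12.0 and 10.9 CPM in CA_IN and at 12.5 and 9.75 CPM in FA_IN. In CPM neither inhibitor separated the treatments. In the authors' TPM, which carry no test, NFKBIE was at 2.23 and 2.31 in CA_IN and lower in both FA_IN libraries, at 1.81 and 1.89. This was a log2 difference of -0.29, beside a median of -0.05 over all genes. NFKB2 was at 2.86 and 3.06 TPM in CA_IN and at 2.85 and 2.72 TPM in FA_IN, and the other genes overlapped. The share of all genes so separated in TPM was not computed. TNFAIP3, a gene that is strongly induced when the pathway is active, had the widest spread, with 7.95 and 15.0 CPM in CA_IN and 10.0 and 12.0 CPM in FA_IN. Both FA_IN libraries lay inside the range of the CA_IN libraries. Its log2FC was -0.05 ± 0.30 and its interval ran from -0.73 to 0.63, so folds between 0.601 and 1.54 were not distinguished from no change with these replicates. BIRC3 was at 8.36 and 11.6 CPM in CA_IN and at 10.6 and 9.83 CPM in FA_IN, and the kinase gene IKBKB was at 20.5 and 21.0 CPM in CA_IN and at 24.0 and 19.9 CPM in FA_IN. Compared within one file number, 6 of the genes gave treatment differences of opposite sign in the libraries numbered 1 and 3. TNFAIP3, for example, differed by 0.34 on the log2 scale between the libraries numbered 1 and by -0.32 between those numbered 3. NFKB1 gave 0.02 and 0.13, RELA -0.13 and -0.06, and NFKBIA -0.13 and -0.15. Leaving out 1 library at a time turned the sign of the log2FC for 8 of the 9 genes, NFKBIA being the exception.

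**Figure D1:**
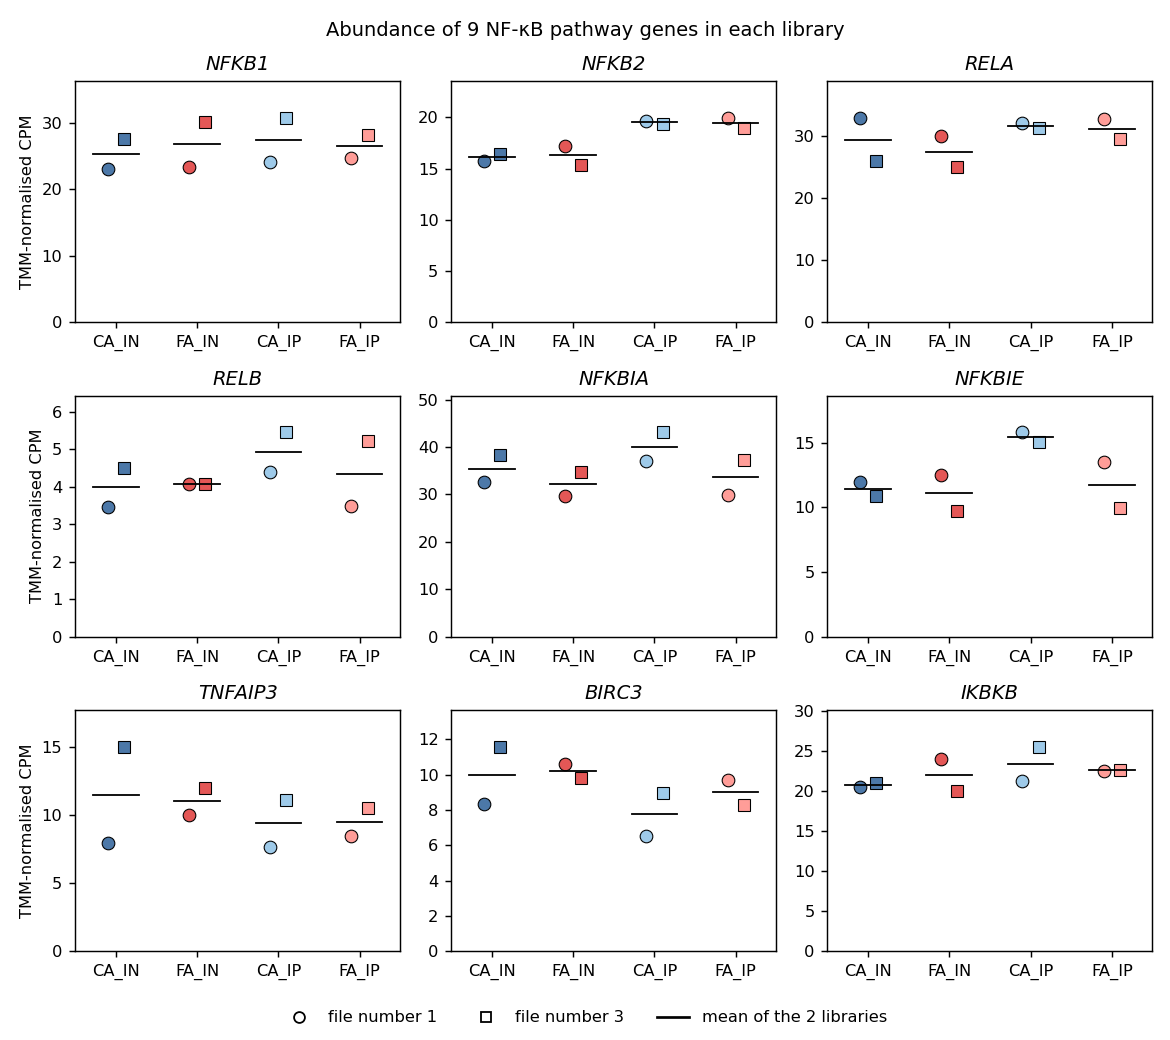
TMM-normalised CPM (linear axis from 0) of the 9 genes in each library, by group, with circles for file number 1, squares for file number 3 and a bar at the mean of the 2 libraries. The FA_IN and CA_IN libraries overlap in every panel, and the squares lie above the circles in all 4 groups for NFKB1, NFKBIA and TNFAIP3.

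The recovery of a gene's RNA by the antibody was read by comparing immunoprecipitated with input RNA within a treatment. In clean air, 0 of the 9 genes passed the adjusted p, beside 1.91% of all tested genes called (27 higher and 322 lower in CA_IP). NFKBIE and NFKB2 were under an unadjusted p of 0.05, a rule that 12.6% of all genes met. The inhibitor gene NFKBIE was at 15.8 and 15.1 CPM in CA_IP, above both CA_IN libraries, with a log2FC of 0.43 ± 0.19 (95% interval from 0.0097 to 0.86, adjusted p = 0.38, edgeR). NFKB2 was at 19.7 and 19.4 CPM in CA_IP, also above both CA_IN libraries, with a log2FC of 0.28 ± 0.12 (from 0.0039 to 0.56, adjusted p = 0.39, edgeR). Besides these, IKBKB, at 21.2 and 25.5 CPM in CA_IP, had both libraries above both of the input, which makes 3 of the 9 genes beside 22.9% of all genes, and 0 of the 9 had both below, beside 18.1%. At the other end were the feedback regulators. BIRC3 was at 6.55 and 8.97 CPM in CA_IP, with a log2FC of -0.36 ± 0.21, and TNFAIP3 was at 7.69 and 11.1 CPM, with a log2FC of -0.29 ± 0.30. Both overlapped with their input libraries. The other subunits and NFKBIA gave log2FC values between 0.11 (RELA and NFKB1) and 0.30 (RELB). RELA was at 32.2 and 31.4 CPM, NFKB1 at 24.1 and 30.8 CPM, RELB at 4.40 and 5.45 CPM and NFKBIA at 37.1 and 43.1 CPM in CA_IP.

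Because each pool was split into an input and an immunoprecipitated part, the pool can be entered as a block, which removes the spread between pools. With this block the call changed for 3 genes in clean air: NFKBIE was higher in CA_IP (log2FC 0.43, adjusted p = 0.0027, edgeR), NFKB2 was higher (0.28, adjusted p = 0.028, edgeR) and BIRC3 was lower relative to the typical gene (-0.36, adjusted p = 0.028, edgeR). The mean TPM of BIRC3 was higher in CA_IP, but by less than the median of all genes (given further on). The block also raised the share of all genes called to 11.6% higher and 5.85% lower, so 2 of 9 genes higher and 1 of 9 lower stand beside a large background. With a block for the file number alone, which treats the input and immunoprecipitated libraries of both treatments as a set, NFKBIE was called higher (adjusted p = 0.031, edgeR), beside 6.77% of all genes. The fold differences themselves were nearly the same with and without the blocks. Within each file number, NFKBIE was 0.40 and 0.47 higher on the log2 scale in CA_IP, NFKB2 0.32 and 0.24 higher, and BIRC3 differed by -0.35 and -0.37.

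In formaldehyde, 0 of the 9 genes passed the adjusted p and 0 were under an unadjusted p of 0.05, beside 1.5% of all tested genes called (6 higher and 268 lower in FA_IP) and 9.1% under the unadjusted limit. NFKB2 was again above both input libraries, at 20.0 and 18.9 CPM in FA_IP, with a log2FC of 0.26 ± 0.12 (95% interval from -0.02 to 0.54), and BIRC3, at 9.68 and 8.30 CPM, was below both, with a log2FC of -0.19 ± 0.22. Such a separation of both libraries was met upward by 18.9% and downward by 18.5% of all genes. NFKBIE was at 13.5 and 9.94 CPM in FA_IP, a range that overlaps its input, with a log2FC of 0.07 ± 0.19. For the remaining genes FA_IP held 24.8 and 28.1 CPM of NFKB1, 32.7 and 29.7 CPM of RELA and 3.48 and 5.22 CPM of RELB. The same libraries held 29.9 and 37.3 CPM of NFKBIA, 8.46 and 10.6 CPM of TNFAIP3 and 22.5 and 22.6 CPM of IKBKB. All of these overlapped with FA_IN. With the pool as a block, 0 of the 9 genes were called, beside 10.1% of all genes, and NFKB2 came nearest (adjusted p = 0.075, edgeR).

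The difference between the treatments in recovery was tested as the interaction, and 0 of the 9 genes passed (0 of all 18242 genes did, and 1.07% had an unadjusted p under 0.05, none of the 9 among them). The pool block left this at 0 of 9 beside 0.137% of all genes, and DESeq2 on all 8 libraries called 0 of the 9 here and in both comparisons with input, and 3 of all genes in the interaction. The widest difference was that of NFKBIE, -0.36 ± 0.27 on the log2 scale (95% interval from -0.97 to 0.25), so the call of NFKBIE in clean air under the block and its absence in formaldehyde were not shown to differ. The interval of NFKBIA ran from -0.61 to 0.38 and that of RELA from -0.40 to 0.55. With library size in place of TMM, the median log2FC of all genes moved from 0.02 to 0.16 in clean air and from 0.00 to 0.17 in formaldehyde, so the log2FC values between immunoprecipitated and input RNA hold relative to the typical gene. The shift was larger in the authors' TPM, whose median over all genes differed by 0.93 on the log2 scale in clean air and by 0.87 in formaldehyde. All 9 genes had a higher mean TPM in immunoprecipitated than in input RNA, by 1.62 to 2.42-fold in clean air and by 1.38 to 2.23-fold in formaldehyde, BIRC3 and TNFAIP3 included, whose log2FC from counts was negative. BIRC3, for example, was at 0.72 and 0.91 TPM in CA_IN and at 1.19 and 1.47 TPM in CA_IP, a log2 difference of 0.70. Set against the median of all genes, BIRC3 differed by -0.23 and TNFAIP3 by -0.22 in clean air and the other 7 genes were above it. In formaldehyde 5 of the 9 were above the median and 4 below, with NFKBIE highest (0.29) and TNFAIP3 lowest (-0.41). The interaction in TPM was -0.11 for NFKBIE and widest for RELB (-0.38). These TPM differences carry no test. With library size the split of all called genes moved to 821 higher and 336 lower in clean air and to 318 higher and 243 lower in formaldehyde, and still 0 of the 9 were called.

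**Figure D2:**
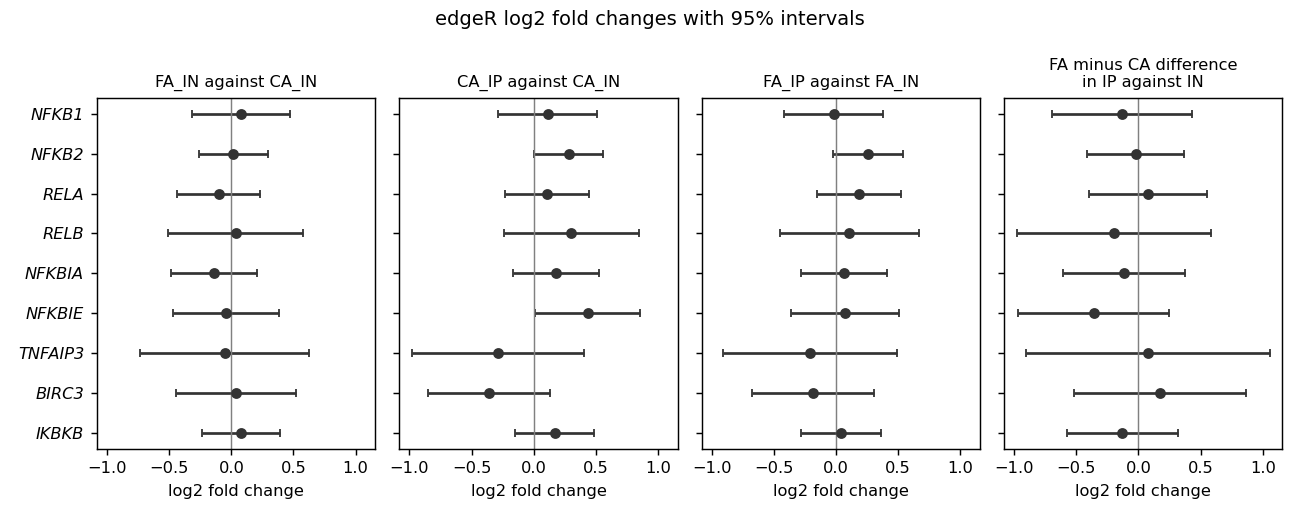
Log2FC of the 9 genes in the 3 comparisons and the interaction (points) with 95% intervals (bars) from the edgeR fit, on one linear axis. Every interval includes 0 except those of NFKB2 and NFKBIE in CA_IP against CA_IN, which start at 0.0039 and 0.0097.

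The antibody recognises an oxidised guanine, so the guanine share of the RNA was set beside the recovery. It was computed from GENCODE 44 sequences, weighting isoforms by their counts, and was available for 99.6% of tested genes, with a median of 24.7%. RELB (31.7% guanine), NFKBIE (31.2%) and NFKB2 (30.5%) were at the 94.5, 92.7 and 89.4 percentile of all genes, and they were also the 3 of the 9 genes with the highest log2FC in clean air. BIRC3 had the lowest share, 19.4% guanine at the 5.91 percentile, and the lowest log2FC in clean air. In formaldehyde this order did not hold in the log2FC from counts: after NFKB2 (0.26) came RELA (0.18), NFKBIE gave 0.07, and the lowest was TNFAIP3 (-0.21) rather than BIRC3 (-0.19). In TPM set against the median of all genes, NFKBIE (0.29) was highest in formaldehyde, before NFKB2 (0.25) and RELA (0.18). RELB gave -0.04 there and TNFAIP3 was lowest (-0.41). TNFAIP3, which like BIRC3 had a negative log2FC in clean air, was at 24.2% guanine, for which isoforms holding 75.8% of its counts had a sequence. The 4 remaining genes lay between 25.6% and 27.7% guanine. Over all genes, the 25% with the least guanine had a median log2FC of -0.15 in clean air and the 25% with the most 0.26, and in formaldehyde the medians were -0.11 and 0.17. BIRC3 and TNFAIP3 were also the longest of the 9 genes by mean isoform length, 5049 and 4420 bases (86.0 and 80.9 percentile). NFKBIA, the shortest at 1515 bases, gave 0.18 in clean air, below NFKB2, NFKBIE and RELB. The part of guanine share or of length in the recovery of these genes was not tested.

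Isoform estimates of the same genes were far less steady than the gene sums. The files list 120 isoforms of the 9 genes, of which 102 held counts and 55 passed the filter, and 27 of those 55 were at 0 in at least 1 library. No isoform was called in any of the 4 comparisons (edgeR, 67873 transcripts tested, of which 0.242% were called in CA_IP against CA_IN, 0.144% in FA_IP against FA_IN, and 0 in the other 2). An unadjusted p under 0.05 was found for 2 of 55 in FA_IN against CA_IN (2.8% of all transcripts), 1 in CA_IP against CA_IN (7.06%), 1 in FA_IP against FA_IN (5.95%) and 2 in the interaction (2.92%). DESeq2 on all 8 libraries called 1, in CA_IP against CA_IN. NFKBIA is simplest, with 90.9% of its counts in ENST00000216797, a share that stayed between 88.2% and 93.5% in every library. BIRC3 had 87.7% in ENST00000263464. RELA had 63.0% in ENST00000406246, NFKB2 had 57.8% in ENST00000189444 and RELB had 66.6% in ENST00000221452, whose share ran from 33.3% to 81.2%. NFKB1 was divided between ENST00000226574 (47.2%), ENST00000505458 (33.9%) and ENST00000394820 (15.0%). NFKBIE had 46.7% in each of ENST00000275015 and ENST00000619360, with identical counts in every library, and the files give both the same length, 2581 bases. IKBKB was spread over 29 isoforms with counts and 18.9% of its counts fell to isoforms annotated as protein coding. Exons of RELA, TNFAIP3 and BIRC3 overlap those of a gene on the opposite strand by 103, 95 and 126 bases, 1.89%, 1.47% and 1.68% of their exonic bases, and without a strand setting in the counting, reads from these bases cannot be assigned to either strand.

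The study names 2 of these isoforms, RELA ENST00000612991 and IKBKB ENST00000520810, in its lists of transcripts enriched in 8-oxoG after formaldehyde relative to clean air. That choice was made on these same libraries. RELA ENST00000612991, a protein-coding isoform with 4.52% of the gene's counts, was at 118 and 83.2 counts in CA_IN against 0 and 0 in CA_IP. After formaldehyde it was at 27.3 and 23.4 counts in FA_IN against 0 and 51.4 in FA_IP. The study also lists it as differing between the inputs, with an adjusted p under 0.05. Here FA_IN against CA_IN gave it a log2FC of -1.48 (edgeR), and neither edgeR nor DESeq2 called it. Its allotted counts, scaled for depth, were at least 37.1-fold higher in CA_IN than in CA_IP, with 3 counts over the group as the floor. That bound does not cover how reads shared with other isoforms were divided. The FA_IP libraries disagreed, 1 being at 0 and 1 above both FA_IN libraries. edgeR gave a log2FC of -9.14 with an adjusted p of 0.57 in clean air. The interaction was 9.40, in the direction of the study's list, with an unadjusted p of 0.032 and an adjusted p of 1.00 (edgeR). With 0 counts in both CA_IP libraries, the size of these 2 values is not determined. DESeq2 called this isoform lower in CA_IP (adjusted p = 0.029 on 8 libraries, beside 1.16% of transcripts called lower, and 0.00019 on the 4 libraries of the comparison, beside 0.569%), and its interaction had an adjusted p of 0.58 by DESeq2 on 8 libraries. Without a filter on low counts edgeR called it lower in CA_IP as well (adjusted p = 0.047, beside 0.371%).

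IKBKB ENST00000520810 was at 143 and 199.9 counts in CA_IN against 0 and 0 in CA_IP, and at 192 and 0 counts in FA_IN against 0 and 265 in FA_IP. By the same floor its allotted counts, scaled for depth, were at least 63.3-fold higher in CA_IN than in CA_IP, with the same limit on shared reads. Within FA_IN and within FA_IP it ran from 0 to 192 and to 265 counts. Its adjusted p in clean air was 0.80 with edgeR, 0.64 with DESeq2 on 8 libraries and 5.5e-06 with DESeq2 on 4 libraries, where 0.569% of transcripts were called lower. Its interaction was 10.4 on the log2 scale, in the direction of the study's list (unadjusted p = 0.13, edgeR). The 0 counts in CA_IP leave that size undetermined as well. A second IKBKB isoform, ENST00000649612, annotated for nonsense-mediated decay, ran the other way. It was at 149 and 63.6 counts in CA_IN against 187.5 and 105 in CA_IP, and at 0 and 231 counts in FA_IN against 39.3 and 0 in FA_IP. In 6 of the 8 libraries exactly 1 of these isoforms was at 0, and no library lacked both. Of the stretches of 75 bases in ENST00000649612, as long as 1 read, 94.6% also occur in ENST00000520810. Summed, the pair was at 6.71 and 7.20 CPM in CA_IN against 7.93 and 5.05 in CA_IP, and at 8.00 and 6.68 CPM in FA_IN against 2.17 and 10.9 in FA_IP. The coefficient of variation over the 8 libraries fell from 124% and 87.8% for the single isoforms to 36.8% for their sum, and it was 8.47% for the gene. Sums of ENST00000520810 with other IKBKB isoforms varied more, also where more sequence was shared. They gave 68.7% with ENST00000523517 (96.9% of its stretches shared), 59.5% with ENST00000517890 (97.1%) and 65.1% with ENST00000520201 (70.4%).

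A similar pattern was seen in TNFAIP3. ENST00000612899, with 42.4% of the gene's counts, was at 158 and 216 counts in CA_IN against 64.9 and 0 in CA_IP, and at 135 and 221 counts in FA_IN against 44.7 and 168 in FA_IP. ENST00000237289, with 31.0%, was at 124 and 126 counts in CA_IN against 87.5 and 181 in CA_IP, and at 74.3 and 61.6 counts in FA_IN against 83.6 and 0 in FA_IP. In CA_IP replicate 2 and in FA_IP replicate 2, 1 of them was at 0 and the other at 181 and 168 counts. They share 99.0% of the 75-base stretches of ENST00000237289, and their sum had a coefficient of variation of 14.6%, beside 56.9% and 71.3% for each. For RELA, 94.3% of the stretches of ENST00000612991 occur in ENST00000406246. That main isoform was at 561 and 382 counts in CA_IP, where the minor isoform was at 0, and the sum of both had a coefficient of variation of 11.6%, beside 14.6% for ENST00000406246, which holds most of that sum, and 101% for ENST00000612991 alone. The sharing of sequence was read from GENCODE 44, whose transcript lengths differ from the files' for some isoforms, and its part in the isoform values was not tested further.

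**Figure D3:**
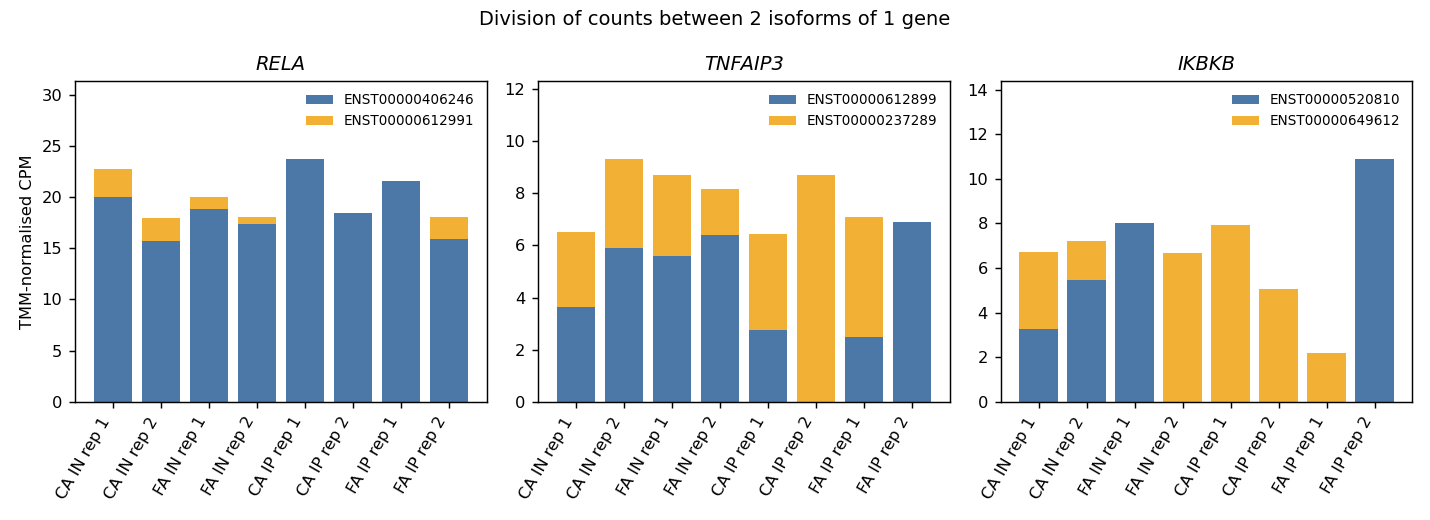
TMM-normalised CPM (linear axis from 0) of isoform pairs of RELA, TNFAIP3 and IKBKB in each of the 8 libraries, stacked so that the bar height is the sum of the pair. Where an IKBKB or TNFAIP3 isoform is at 0 the other fills the bar, as in CA_IP replicate 2 for TNFAIP3.

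The replicates of every group carry the number 1 or 3 in the files, which the study's supplement uses as the names of its biological replicates. The supplement lists exposures on 3 days, and which of them a number stands for is not given in the sources used here. A comparison of number 3 with number 1, with group as a term, was added after the data were seen. It called 4 of the 9 genes, beside 21.9% of all 18242 genes (8.95% higher and 12.9% lower in number 3). NFKB1 was higher in number 3 by a log2FC of 0.29 ± 0.06 (adjusted p = 0.0042, edgeR), NFKBIA by 0.25 ± 0.06 (adjusted p = 0.0076, edgeR) and TNFAIP3 by 0.53 ± 0.11 (adjusted p = 0.0035, edgeR), each in 4 of 4 groups. RELA was lower by 0.20 ± 0.07 on the log2 scale (log2FC -0.20, adjusted p = 0.041, edgeR), also in 4 of 4 groups. For TNFAIP3 the difference was 0.92 in CA_IN, 0.26 in FA_IN, 0.53 in CA_IP and 0.32 in FA_IP. RELB was higher in 4 of 4 groups, though in FA_IN by only 0.00032 on the log2 scale, and NFKBIE was lower in 4 of 4. Neither passed the test (adjusted p = 0.074 and 0.059, edgeR). With RELB counted, 4 of the 9 genes were higher and 2 lower in every group, beside 18.2% and 21.1% of all genes. NFKB2, BIRC3 and IKBKB gave log2FC values of -0.05, 0.16 and 0.01. BIRC3 was higher in number 3 in both clean air groups (0.47 and 0.45) and lower in both formaldehyde groups (-0.11 and -0.22).

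The input and immunoprecipitated libraries of a pool are not independent, so the comparison was repeated within each kind. The 4 input libraries alone called the same 4 genes, beside 14.6% of all genes: NFKB1 (0.32, adjusted p = 0.017, edgeR), NFKBIA (0.24, adjusted p = 0.038, edgeR), TNFAIP3 (0.62, adjusted p = 0.0047, edgeR) and RELA (-0.30, adjusted p = 0.020, edgeR). The 4 immunoprecipitated libraries alone called none, with adjusted p of 0.072, 0.052, 0.060 and 0.63 in that order. RELA also lost its call with RLE size factors (adjusted p = 0.051, edgeR), without the filter (0.054) and with DESeq2 (0.10), whereas NFKB1, NFKBIA and TNFAIP3 kept theirs in these 3 fits. Leaving out 1 library at a time, RELA lost its call in 6 of 8 fits (adjusted p from 0.081 to 0.34, edgeR), namely without any of the 4 input libraries or either FA_IP library. NFKBIA lost its call without CA_IN replicate 1 (adjusted p = 0.054, edgeR). RELB gained a call without either FA_IN library and NFKBIE without either CA_IP library, while NFKB1 and TNFAIP3 kept their call in all 8. In input, TNFAIP3 thus gave a log2FC of 0.62 between the file numbers and -0.05 between the treatments, and the difference between these was not tested.

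**Figure D4:**
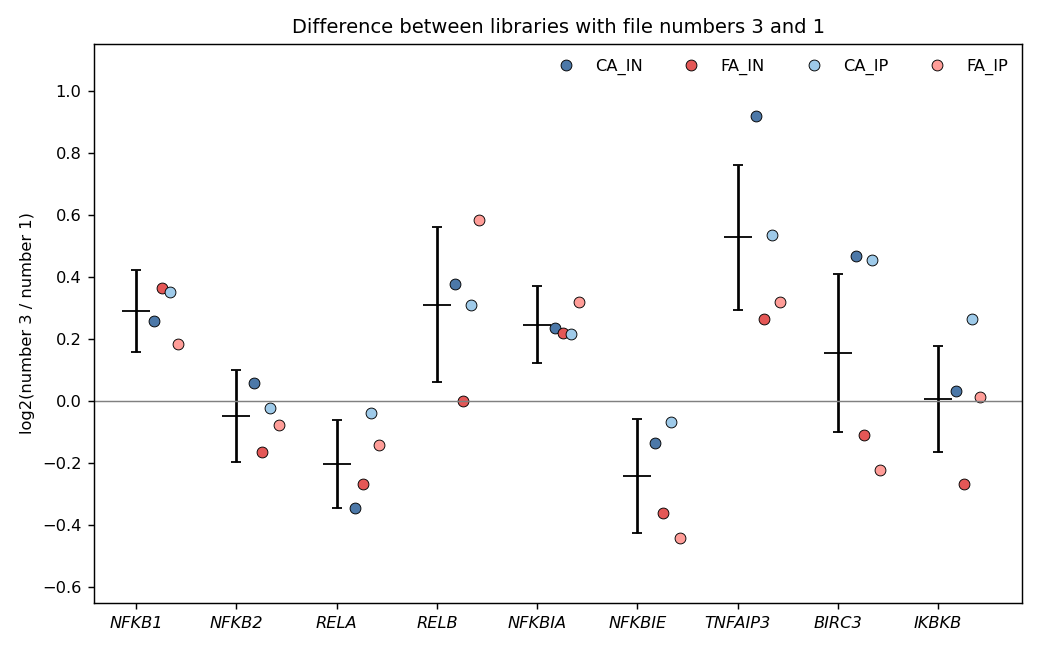
Log2 ratio of the libraries numbered 3 to those numbered 1 for each gene: the black mark is the edgeR estimate over the 4 groups with its 95% interval, and each point is the ratio in 1 group. All 4 points lie above 0 for NFKB1, NFKBIA and TNFAIP3 and below 0 for RELA and NFKBIE. The FA_IN point of RELB lies nearly at 0.

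The genes most like NFKBIA and TNFAIP3 across the 8 libraries were found by Pearson's r of log2 CPM among 8939 genes with a mean of at least 10 CPM. TNFAIP3 was followed most closely by HEG1 (r = 0.98), PLCB4 (0.98) and CCN1 (0.97), the last a secreted matrix protein. NFKBIA was followed by TNC (0.97), which encodes the matrix glycoprotein tenascin C, by ATP8B2 (0.95) and by RNF149 (0.94). HEG1, for instance, was at 24.9 and 44.8 CPM in CA_IN and at 30.9 and 40.9 CPM in FA_IN, so that it shared with TNFAIP3 the gap between the file numbers. These values describe 8 libraries from 4 pools, chosen as the highest of many, and carry no test.

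Other genes of the pathway were read from 4 lists of 79 genes, of which 73 were tested. No gene of any list was called in any of the 4 comparisons (edgeR), and DESeq2 on all 8 libraries called none. The list of 23 genes of signal transduction held adaptors, kinases and ubiquitin ligases, with subunits of the IκB kinase complex and REL among them. Their median log2FC of FA_IN against CA_IN was -0.11, beside 0.02 over all genes, and 2 had an unadjusted p under 0.05, which 3.35% of all genes had. The lowest was REL, the gene of the remaining activating subunit, with -0.57 ± 0.21 (95% interval from -1.05 to -0.10, unadjusted p = 0.024, adjusted p = 0.95, edgeR). REL was at 15.5 and 14.9 CPM in CA_IN and at 9.65 and 10.8 CPM in FA_IN, both below, as were 15.8% of all genes. The highest was TRADD, an adaptor of the TNF receptor, with 0.26. IRAK1, a kinase below the interleukin-1 and Toll-like receptors, was the most abundant of the list at 25.7 TPM and gave 0.15 ± 0.09 (95% interval from -0.05 to 0.35). RBCK1, a subunit of the linear ubiquitin ligase, was at 16.1 TPM and gave 0.08 ± 0.10. In CA_IP against CA_IN 6 of the 23 genes had an unadjusted p under 0.05, beside the 12.6% given above, and TRADD had the highest log2FC, 0.68.

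Of the 18 other inhibitors and feedback regulators, the median for formaldehyde in input was 0.03. Only 1 gene, NFKBID, had an unadjusted p under 0.05, which 3.35% of all genes had, with a log2FC of -0.62. TAX1BP1 and ITCH, partners of A20, were the most abundant at 15.8 and 14.4 TPM and gave 0.09 ± 0.09 and 0.02 ± 0.10. Of the 13 receptors 11 were tested. Their median was -0.05, with TNFRSF12A at 41.6 TPM (0.14 ± 0.09) and the lymphotoxin receptor LTBR at 19.4 TPM (0.04 ± 0.08). The TNF receptor gene TNFRSF1B and the flagellin receptor gene TLR5 did not pass the filter. Of 25 target genes 21 were tested, with a median of 0.00. The range ran from -0.37 ± 0.69 (BCL2A1) to 0.32 ± 0.62 (CXCL8, the neutrophil chemokine), and 1 gene had an unadjusted p under 0.05, beside 3.35% of all genes. This was IRF1, a transcription factor of the interferon response, at 46.5 and 45.7 CPM in CA_IN and at 37.3 and 35.9 CPM in FA_IN. Both FA_IN libraries were below both CA_IN libraries, with a log2FC of -0.33 ± 0.11 (95% interval from -0.58 to -0.09, adjusted p = 0.95, edgeR). SDC4, at 54.6 TPM, gave -0.07 ± 0.11, and CCND1, at 30.0 TPM, gave 0.00 ± 0.09. Inducible targets such as IL6 varied far more between replicates. IL6 was at 1.01 and 5.22 CPM in CA_IN and at 1.79 and 5.23 CPM in FA_IN, with a 95% interval from -1.87 to 2.30. The median of the list thus does not show that such genes were unchanged. TNF, CSF2 and VCAM1, at 0.085 TPM or less in input, did not pass the filter, and SOD2 was not matched by symbol. With the RNA pool as a block, 18 of the 73 genes were higher and 6 lower in CA_IP, and 8 were higher and 1 lower in FA_IP, beside 11.6% and 5.85% of all genes in clean air and 5.45% and 4.6% in formaldehyde.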

How the data were processed

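RNA sequencing was analysed for 8 libraries in 4 groups of 2, grouped by the treatment and fraction in the sample labels. The authors trimmed the reads with cutadapt, aligned them with STAR 2.6.0a to GRCh38 with Ensembl annotation and deposited RSEM 1.2.25 expected counts for each transcript, which divide shared reads among isoforms. The authors' files also hold TPM, which RSEM scales for transcript length and depth. Library kit, read length and the antibody step follow the study's methods; the sample labels name more than one antibody clone, so the clone is not certain. The deposited tables of the authors' own comparisons hold log2 fold changes and p-values and were not used.

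Expected counts were summed by gene and rounded, and a gene was tested if 2 or more of the 8 libraries held 10 or more counts of it. edgeR 4.0.16 (TMM, quasi-likelihood, prior count 0.125) in R 4.3.3 was fitted to all 8 libraries, with Benjamini-Hochberg adjustment over all genes or transcripts and a limit of 0.05. Standard errors and 95% intervals came from the fit. The same model was used for isoforms. Gene symbols and positions came from GENCODE 44 (GRCh38, the build of the files), and tables were made with Python 3.11.15. The script was tested on simulated counts. Alternatives were DESeq2 1.42.0, library size or RLE in place of TMM, other filters, a prior count of 2, fits on 4 libraries, replicate blocks, each library left out and, added after seeing the data, the deposited TPM with no test (pseudocount 0.01). The genes named are all 9, isoforms with at least 10% of a gene's counts or listed by the study, and from each pathway list the called genes or else the 2 with the highest TPM in input, beside list extremes chosen after their values were seen. The genes and lists were chosen with earlier results of these data known.

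Input and immunoprecipitated libraries were paired because the study's methods say that each RNA pool was split. The files carry the numbers 1 and 3, and libraries of different groups with the same number deviated together, with correlations between 0.20 and 0.38 over genes in all 6 pairs of groups. For the input and immunoprecipitated library of a pool it was 0.38 in clean air and 0.25 in formaldehyde. Pairs from different pools gave 0.20 to 0.28, so in formaldehyde libraries of a pool were not closer than some from different pools. The 9 genes had 63.0 to 1437 counts per library. Bounds against 0 counts use a floor of 3 counts over a group and include no error beyond counting. They leave out PCR copies of a fragment, which no molecular identifiers mark, and the division of shared reads among isoforms. With 2 libraries a group, p-values of the main fit measure the spread between the replicate libraries of the groups. The input and immunoprecipitated libraries of a pool entered that fit as separate units. With a block, p-values measure only the spread left after the file number or within the RNA pools.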

Additional observations from a re-analysis of the deposited data

How the results depend on the processing

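No alternative called any of the 9 genes between FA_IN and CA_IN, between FA_IP and FA_IN or in the interaction. In CA_IP against CA_IN, 1 gene was called with a replicate block by file number and 3 with a replicate block by RNA pool, whose construction removes the spread between pools, and the blocks changed no other call of the 9. Of their isoforms in that comparison, DESeq2 on 8 libraries called 1, DESeq2 on 4 libraries 2, and edgeR without a filter 1. Of the 73 pathway genes, 7 were called in CA_IP and 3 in FA_IP with library size in place of TMM (beside 6.34% and 3.08% of all genes), 1 in CA_IP without a filter (1.92%), 13 and 3 with the block by file number (10.6% and 5.22%), and 24 and 9 with the block by RNA pool (17.4% and 10.1%). The cause was not tested for the isoform, scaling and filter changes. Between the file numbers, 4 genes were called, 0 in the immunoprecipitated libraries alone, for which the cause was not tested, and 2 to 5 with 1 library left out, the 2 without CA_IN replicate 1.

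Apart from leaving out a library, 11 of the log2FC values changed sign under settings on counts, to at most 0.15 in size. With library size in place of TMM these were NFKB2 (-0.025), RELB (-0.0050) and BIRC3 (-0.0023) between inputs, NFKB1 (0.15) in FA_IP against FA_IN, NFKB2 (0.00082) in the interaction and IKBKB (-0.0096) between file numbers. NFKB2 between inputs also gave -0.0018 with DESeq2 on 4 libraries, -0.0057 without a filter and -0.0022 with a mean count of at least 50, where its interaction gave 0.011. IKBKB gave -0.10 between file numbers in input alone. With the deposited TPM in place of counts, an alternative chosen after seeing the data and without the centring on the typical gene that TMM gives, signs turned for TNFAIP3 (0.71) and BIRC3 (0.70) in CA_IP against CA_IN and for NFKB1 (0.82), TNFAIP3 (0.47) and BIRC3 (0.74) in FA_IP against FA_IN. They also turned for NFKB2 (-0.088), BIRC3 (-0.11) and IKBKB (-0.066) between inputs and for NFKB2 (0.025), TNFAIP3 (-0.24) and IKBKB (0.0084) in the interaction.

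Leaving out 1 library at a time moved the log2FC between inputs over -0.14 to 0.23 for NFKB1, -0.081 to 0.075 for NFKB2, -0.27 to 0.082 for RELA, -0.15 to 0.23 for RELB, -0.24 to 0.11 for NFKBIE, -0.44 to 0.47 for TNFAIP3, -0.18 to 0.28 for BIRC3 and -0.073 to 0.19 for IKBKB. In CA_IP against CA_IN it ran over -0.072 to 0.28 for NFKB1, -0.068 to 0.29 for RELA and -0.68 to 0.23 for TNFAIP3. In FA_IP against FA_IN it ran over -0.18 to 0.19 for NFKB1, -0.21 to 0.36 for RELB, -0.088 to 0.21 for NFKBIA, -0.16 to 0.30 for NFKBIE and -0.072 to 0.19 for IKBKB. In the interaction it ran over -0.30 to 0.10 for NFKB1, -0.065 to 0.092 for NFKB2, -0.11 to 0.26 for RELA, -0.49 to 0.052 for RELB, -0.24 to 0.041 for NFKBIA, -0.43 to 0.46 for TNFAIP3, -0.054 to 0.42 for BIRC3 and -0.26 to 0.039 for IKBKB. Between file numbers it ran over -0.089 to 0.0080 for NFKB2 and -0.075 to 0.12 for IKBKB. The group left with 1 library was assumed to vary like the others.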
